A study of Homo sapiens with 12 samples.

Results

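RNA-seq counts were examined for 9 genes of the MHC class II pathway, namely CD74, CIITA, HLA-DRA, HLA-DRB1, HLA-DPA1, HLA-DPB1, HLA-DQB1, HLA-DMA and HLA-DMB. They were selected by symbol from the 39368 gene symbols in the count tables. On GRCh38, CD74 lies at chr5:150401637-150412969, CIITA at chr16:10866222-10943021, and the HLA genes within the class II region of chromosome 6, from HLA-DRA at chr6:32439878-32445046 to HLA-DPB1 at chr6:33075990-33089696. The cells were CAL27 and HSC3, human HPV-negative head and neck squamous cell carcinoma (HNSCC) lines of tongue origin, carrying a doxycycline (DOX)-inducible shRNA against MUC1 and selected in puromycin. For each line, 3 libraries came from cells treated with vehicle (0.1% DMSO) and 3 from cells treated with DOX at 500 ng/mL, both for 7 days, so that there were 12 libraries in 4 groups. All groups carry the same inducible MUC1 shRNA. DOX-treated cells with a control shRNA were not analysed here, so an effect of DOX itself and an effect of MUC1 silencing cannot be told apart. CAL27 cells were grown in DMEM and HSC3 cells in MEM, so line and medium cannot be told apart either.

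MHC class II molecules are pairs of an α and a β chain that present peptides from the endosomes to CD4+ T cells. CD74, the invariant chain, holds new class II pairs together and blocks their groove until endosomal proteases cut it away, and HLA-DM then exchanges the remaining fragment for peptide. Transcription of these genes depends on CIITA, a coactivator that binds no DNA itself and is held on a conserved promoter module by the RFX complex, CREB and NF-Y. Professional antigen-presenting cells make CIITA constitutively, whereas epithelial and carcinoma cells usually make it in response to interferon-γ, in part through IRF1. CIITA has several promoters, and the gene-level counts used here do not separate them.

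The conserved module is what CIITA reads, so the promoters of the members are shown first. The RefSeq promoter table (GRCh38.p14) held windows for 7 of the 9 members and none was found there for CIITA or HLA-DRA. The 250 bases before each listed start were searched on both strands for AGNNACNGA, a pattern matching the X box bound by RFX, and for ATTGG, the Y box bound by NF-Y, which reads CCAAT on the other strand. The letters of the X pattern were chosen after the windows had been seen. AGNNACNGA occurred in 12.34% of the 35116 windows of the whole table and ATTGG in 32.01%. AGNNACNGA followed on the same strand by ATTGG, with 20 to 35 bases from start to start, occurred in 65 windows, or 0.19%. Of the members with a window, 5 held AGNNACNGA, 6 held ATTGG and 3 held the spaced pair, namely HLA-DRB1 and HLA-DQB1 at 33 bases and HLA-DMA at 34 bases. The stretches below run 5′ to 3′ on the strand of the gene, and capitals mark matches of both patterns lying wholly within the stretch. Other matches are not marked, among them the only ATTGG of HLA-DMB, which is cut at the end of its stretch.
HLA-DRB1, chr6:32589858-32589937, minus strand: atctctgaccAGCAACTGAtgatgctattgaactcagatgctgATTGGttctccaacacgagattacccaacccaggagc
HLA-DQB1, chr6:32666709-32666788, minus strand: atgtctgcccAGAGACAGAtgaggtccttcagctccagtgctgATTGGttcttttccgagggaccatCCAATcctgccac
HLA-DMA, chr6:32953141-32953220, minus strand: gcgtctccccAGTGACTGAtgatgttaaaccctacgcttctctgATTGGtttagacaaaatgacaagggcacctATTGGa
HLA-DMB, chr6:32941047-32941126, minus strand: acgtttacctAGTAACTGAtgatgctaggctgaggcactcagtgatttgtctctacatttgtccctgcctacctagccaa
HLA-DPA1, chr6:33073679-33073758, minus strand: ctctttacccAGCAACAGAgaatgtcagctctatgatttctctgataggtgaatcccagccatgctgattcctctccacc
HLA-DPB1, chr6:33075875-33075954, plus strand: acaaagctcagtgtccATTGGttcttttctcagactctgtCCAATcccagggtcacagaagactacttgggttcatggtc
CD74, chr5:150412924-150413003, minus strand: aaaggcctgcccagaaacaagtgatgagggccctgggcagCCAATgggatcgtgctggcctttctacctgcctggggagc
The first 3 hold the spaced pair. HLA-DMB and HLA-DPA1 hold the X pattern without an ATTGG behind it at that spacing, and HLA-DPB1 and CD74 hold ATTGG or CCAAT without the X pattern. HLA-DPA1 has a second listed start whose window held neither pattern. A match is a description of letters, and a missing one says only that these letters are not in the window.

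Library totals ran from 89730914 to 169065103 counts, and DOX libraries of HSC3 cells had the highest. Repeat counts of the same molecule could be judged only indirectly. An estimate from how often a gene expected at 8 to 16 counts had none gave 2.45 to 3.33 counts per molecule in CAL27 libraries, 4.18 to 7.43 in HSC3 vehicle libraries and 8.93 to 17.2 in HSC3 DOX libraries. Differences between cultures can also leave a gene without counts, and their part in this estimate was not tested. If the estimate holds, low counts in HSC3 cells stand for few molecules. MUC1, the targeted gene, was at 53.1 to 58.4 CPM (counts scaled to a common library size) with vehicle and 2.76 to 3.25 CPM with DOX in CAL27 cells, and at 1.64 to 1.97 and 0.132 to 0.310 CPM in HSC3 cells. Replicate 1 of the HSC3 DOX libraries stood apart. It had the highest estimate of counts per molecule and the fewest genes with counts (19128). It differed from the other libraries of its group with a chi-square of 141 and 90.9 per degree of freedom, beside 23.2 between those others. Leaving it out moved the number of genes whose HSC3 response lay above the CAL27 response from 1708 to 2614 and changed no call among the class II genes. All 8 squamous epithelial markers examined were read in each group, with KRT5 the most abundant. Their summed level was 7125 to 7419 CPM with vehicle and 3691 to 3864 CPM with DOX in CAL27 cells, and 7166 to 7856 and 3934 to 4429 CPM in HSC3 cells. Of the 8 markers, 5 fell and 1 rose in CAL27 cells, and in HSC3 cells 4 fell and 1 rose. Among the 19239 genes tested for CAL27, 21.8% fell and 22.6% rose by the same rule, an adjusted p under 0.05. Among the 18021 tested for HSC3, 15.4% fell and 13.0% rose. KRT14, a basal keratin, fell 7.45-fold in CAL27 and 3.67-fold in HSC3 cells. The part of this change in the class II values was not tested.

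In vehicle-treated CAL27 cells all 9 genes were read, with CD74 far above the rest. Levels of different genes were compared as CPM per kb of the canonical transcript of GENCODE v44. CD74 was at 108.7 ± 2.86 CPM per kb (SD, n = 3), HLA-DRA at 21.9 ± 1.06, HLA-DMA at 6.60 ± 0.525, HLA-DRB1 at 4.96 ± 0.385 and HLA-DMB at 1.67 ± 0.369. These first 5 did not overlap from one to the next over the 3 libraries. CIITA at 1.14 ± 0.100, HLA-DPA1 at 1.09 ± 0.187 and HLA-DQB1 at 0.955 ± 0.0699 CPM per kb overlapped with their neighbours in this order, and HLA-DPB1 was lowest at 0.470 ± 0.0814. The lower places depend on the length used. The canonical form of CIITA has 16061 bases, and another coding form of 4657 bases gives 3.95 CPM per kb. The canonical form of HLA-DPB1 has 3991 bases, and per kb of merged exons HLA-DPB1 was at 0.360, above HLA-DPA1 at 0.324 and HLA-DQB1 at 0.313 CPM, while CIITA stood above HLA-DMB.

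HSC3 cells read CD74 but little or nothing of the classical class II chains. With vehicle, CD74 was at 51.6 ± 1.77 CPM per kb (SD, n = 3), HLA-DRA at 0.716 ± 0.198, HLA-DRB1 at 0.568 ± 0.0823, CIITA at 0.285 ± 0.0401 and HLA-DMA at 0.212 ± 0.135. HLA-DRA overlapped with HLA-DRB1, and CIITA with HLA-DMA. HLA-DPA1 and HLA-DQB1 had no count in any of the 6 HSC3 libraries. HLA-DPB1 had 4 counts in 1 vehicle library and none elsewhere, and HLA-DMB had 2 counts in 1 vehicle library and 14 in 1 DOX library. These 4 genes were too low to judge in HSC3 cells. A count of 0 in an HSC3 vehicle library allows up to 3 molecules, which is 12.5 to 22.3 counts at the estimated counts per molecule and covers counting error only.

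**Figure D1:**
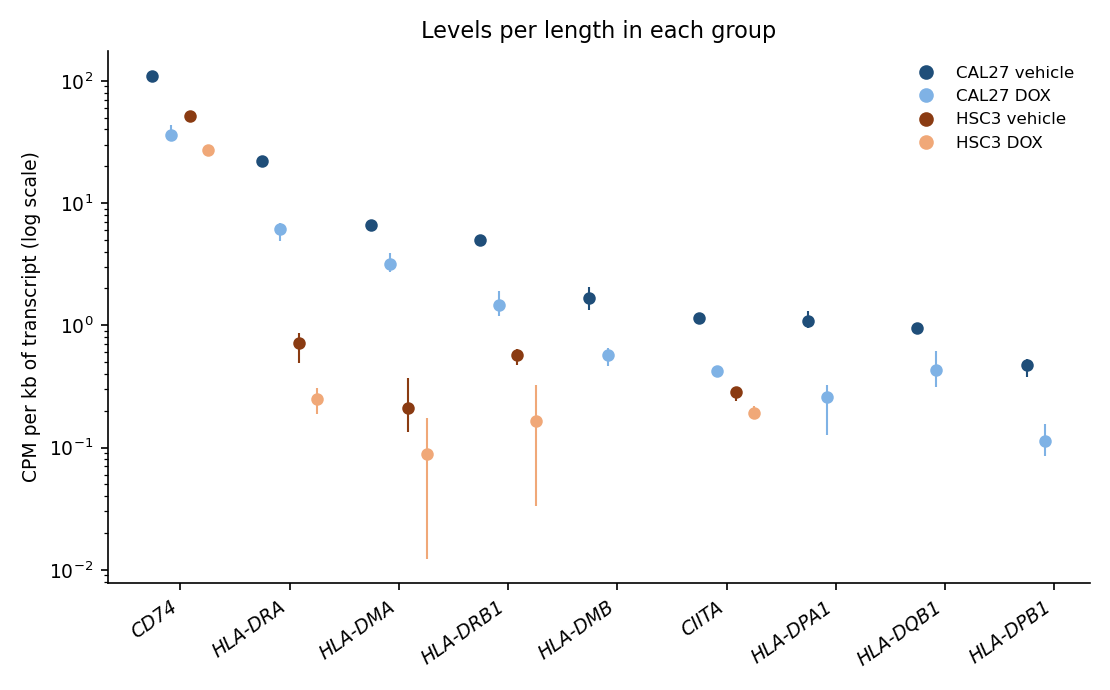
Mean level of each gene in CPM per kb of canonical transcript (log axis) in the 4 groups, with bars from the lowest to the highest of 3 libraries. Genes with a library at 0 in a group have no point there, and CD74 is the highest in every group.

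The 5 genes with enough counts to judge in both lines were lower in vehicle-treated HSC3 than in vehicle-treated CAL27 cells by edgeR's quasi-likelihood test on all 12 libraries, where 32.3% of the 20694 genes tested were called lower. CD74 was 2.11-fold lower (log2 fold change −1.08 ± 0.09 SE, adjusted p = 1.95e-08) and CIITA 4.02-fold lower (−2.01 ± 0.13, adjusted p = 1.47e-09). The DR α chain gene HLA-DRA was 30.7-fold lower (−4.94 ± 0.20, adjusted p = 5.60e-12) and HLA-DRB1, which encodes its β partner, 8.68-fold lower (−3.12 ± 0.41, adjusted p = 6.99e-06). HLA-DMA, the α chain of the peptide exchanger, was 30.2-fold lower (−4.92 ± 0.44, adjusted p = 7.96e-08). The other 4 genes were too low in HSC3 cells to judge between the lines. The share over all genes includes genes read in only 1 line, whereas these 5 had to be read in both. Against the floor of 3 molecules per library, at the estimated counts per molecule, HLA-DPA1 was at least 10.9-fold lower and HLA-DQB1 at least 8.96-fold lower. No fold is given for HLA-DPB1 and HLA-DMB. The median gene lay at −0.12 in this comparison and at −0.16 with median-of-ratios scaling, and each of the 5 fold changes given is far below both. The within-library ratio of HLA-DRA to CD74 counts, which no scaling between libraries touches, was 0.151, 0.154 and 0.146 in CAL27 vehicle libraries against 0.00722, 0.0110 and 0.0129 in HSC3 vehicle libraries.

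In CAL27 cells, all 9 genes fell with DOX. The log2 fold changes ran from −2.11 for HLA-DPA1 to −1.06 for HLA-DMA with a median of −1.59, beside a median of −0.0052 over the 19239 genes tested, of which 21.8% were called lower and 22.6% higher. A call is an adjusted p under 0.05 throughout. All 9 also passed with a fold change above 2 added, which 5.11% of the genes tested did in the lower direction. In none of the 9 did a DOX library reach a vehicle library. How many of all genes tested were separated in this way was not counted, so this is a description only. In bulk RNA, fewer cells reading a gene and less RNA per cell cannot be told apart.

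**Figure D2:**
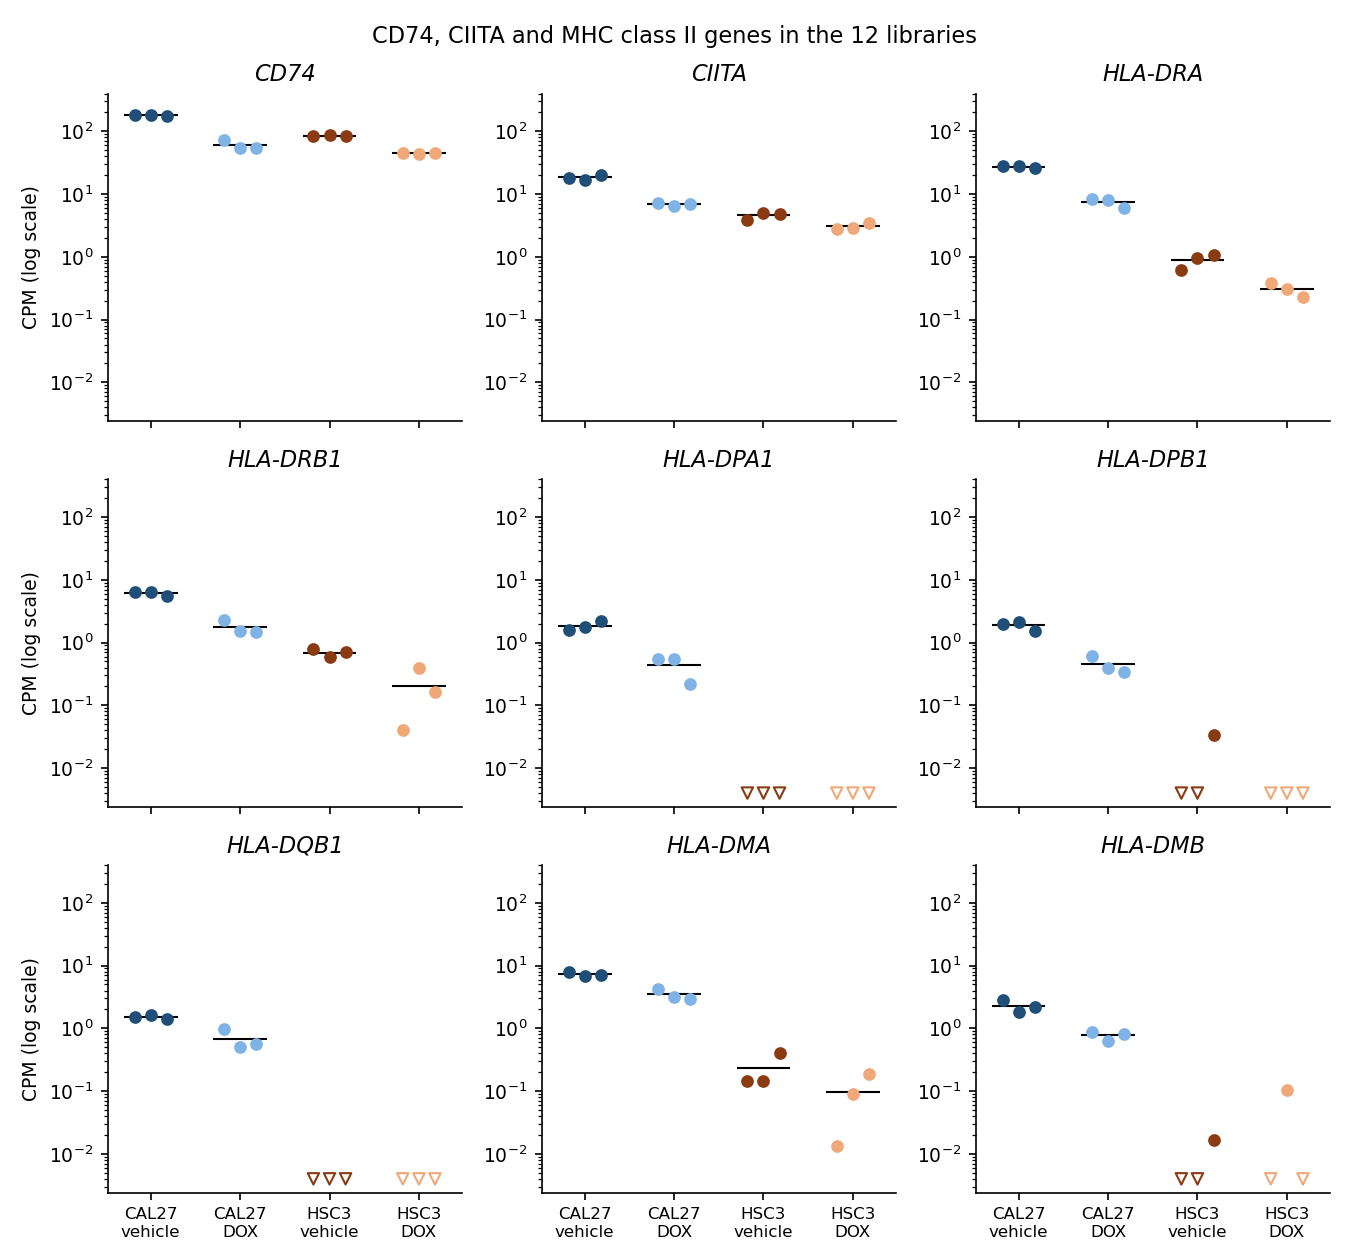
CPM of each gene (log axis) in the 12 libraries, with 1 point per library and a line at the mean of the 3 libraries of a group where none is at 0. Open triangles at the foot mark libraries with no count. CAL27 DOX points lie below all CAL27 vehicle points in every panel.

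CD74, the invariant chain, was at 185, 179 and 175 CPM in the 3 CAL27 vehicle libraries and at 71.5, 53.5 and 54.8 CPM in the DOX libraries. It fell 3.01-fold (log2 fold change −1.59 ± 0.12 SE, adjusted p = 0.000133). The lowest vehicle library was 2.45 times the highest DOX library, and DOX column 4 stood above the other DOX columns. CIITA, the coactivator, was at 18.2, 16.9 and 20.1 CPM with vehicle and at 7.13, 6.39 and 6.95 CPM with DOX, and fell as well (log2 fold change −1.43 ± 0.08, adjusted p = 5.56e-12). Its DOX libraries lay close together, and the lowest vehicle value was 2.37 times the highest DOX value. Genes on the other strand, DEXI among them, share 11.5% of the exonic bases of CIITA, and whether the counting used strand is not given. A further 10.5% are shared with a gene on the same strand, listed as ENSG00000280153.

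HLA-DRA, which encodes the nearly invariant DR α chain, was at 27.9, 27.6 and 25.5 CPM with vehicle and 8.43, 8.03 and 6.09 CPM with DOX in CAL27 cells. The fall was 3.62-fold (log2 fold change −1.86 ± 0.10 SE, adjusted p = 1.87e-09). HLA-DRB1, the polymorphic β chain, was at 6.39, 6.28 and 5.53 CPM against 2.32, 1.54 and 1.47 CPM, a 3.44-fold fall (−1.78 ± 0.14, adjusted p = 1.02e-08). Its counts are uncertain, since it shares long stretches with HLA-DRB5 and how shared reads were counted is not given in the sources used here. The ratio of HLA-DRA to HLA-DRB1 counts within a library was 4.46 ± 0.136 (SD, n = 3) with vehicle and 4.33 ± 0.804 with DOX, a difference smaller than that spread.

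The DP and DQ chains were read at 1 to 3 CPM or below in CAL27 cells and fell as well. HLA-DPA1, the DP α chain, was at 1.61, 1.75 and 2.22 CPM with vehicle and 0.554, 0.543 and 0.217 CPM with DOX (log2 fold change −2.11 ± 0.27 SE, adjusted p = 5.08e-06). HLA-DPB1, its β partner, was at 2.00, 2.12 and 1.51 CPM against 0.621, 0.388 and 0.342 CPM (−2.07 ± 0.22, adjusted p = 2.16e-07). These genes lie head to head on opposite strands of chromosome 6 and overlap in 1.67% of the exonic bases of HLA-DPA1. HLA-DQB1, the DQ β chain, was at 1.54, 1.64 and 1.42 CPM against 0.994, 0.504 and 0.559 CPM (−1.17 ± 0.22, adjusted p = 0.000209). Its gap between the groups was the narrowest of the 9, with the lowest vehicle library 1.43 times the highest DOX library.

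HLA-DM loads peptide and is not itself a presenting molecule. HLA-DMA was at 7.86, 6.76 and 7.03 CPM with vehicle and 4.29, 3.21 and 2.97 CPM with DOX in CAL27 cells, a 2.08-fold fall (log2 fold change −1.06 ± 0.12 SE, adjusted p = 4.72e-07). HLA-DMB, its β chain, was at 2.79, 1.81 and 2.16 CPM against 0.879, 0.621 and 0.823 CPM, a 2.91-fold fall (−1.54 ± 0.19, adjusted p = 1.11e-06). Within a library, the ratio of HLA-DMA to CD74 counts was 0.0426, 0.0377 and 0.0401 with vehicle and 0.0600, 0.0600 and 0.0542 with DOX, and the groups did not overlap. Exons of HLA-DMA and HLA-DMB overlap those of a readthrough gene on the same strand in 6.35% and 9.49% of their bases, and HLA-DMA shares a further 2.18% with BRD2 on the other strand.

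In HSC3 cells, 5 of the 9 genes passed the filter on low counts, and CD74, CIITA and HLA-DRA fell with DOX. The log2 fold changes of the 5 ran from −1.78 to −0.59. Their median of −1.26 is the value of HLA-DMA, which rests on few counts and was not called (SE 1.04). The median over the 18021 genes tested was −0.0097, and 15.4% of these were called lower and 13.0% higher. HLA-DRA alone was also past a fold change of 2, as were 4.40% of the genes tested in the lower direction. CD74 was at 84.0, 88.6 and 83.1 CPM with vehicle and 44.4, 44.2 and 45.8 CPM with DOX, a 1.91-fold fall (−0.93 ± 0.07 SE, adjusted p = 2.66e-06). Both groups were tight, and the lowest vehicle library was 1.82 times the highest DOX library.

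CIITA was at 3.85, 5.05 and 4.86 CPM with vehicle and 2.80, 2.86 and 3.51 CPM with DOX in HSC3 cells (log2 fold change −0.59 ± 0.18 SE, adjusted p = 0.0317). The groups were separated by a factor of 1.10. The call was lost without vehicle replicate 2 (adjusted p = 0.140), without vehicle replicate 3 (0.122) or without DOX replicate 2 (0.0868). HLA-DRA had 70, 80 and 128 counts in the vehicle libraries and 56, 42 and 28 in the DOX libraries, or 0.607, 0.973 and 1.07 CPM against 0.377, 0.312 and 0.231 CPM (−1.53 ± 0.42, adjusted p = 0.0196). The groups did not overlap. These counts stand for an estimated 10.5 to 19.1 molecules with vehicle and 2.48 to 4.70 with DOX. The HLA-DRA call was lost without vehicle replicate 2 (adjusted p = 0.0825), without vehicle replicate 3 (0.0981), without DOX replicate 3 (0.0564) or with the replicate number as a block (0.0552).

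The remaining 2 tested genes did not pass. HLA-DRB1 had 90, 48 and 86 counts in the HSC3 vehicle libraries and 6, 54 and 20 in the DOX libraries (log2 fold change −1.78 ± 0.71 SE, adjusted p = 0.0870). In CPM its groups did not overlap, with 0.584 in the lowest vehicle and 0.401 in the highest DOX library. The call was gained without DOX replicate 2, which was the highest of its group (−2.77, adjusted p = 0.0164). HLA-DMA had 17, 12 and 48 counts against 2, 12 and 23, with overlapping groups (−1.26 ± 1.04, adjusted p = 0.437). Its difference was not detectable at these counts.

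**Figure D3:**
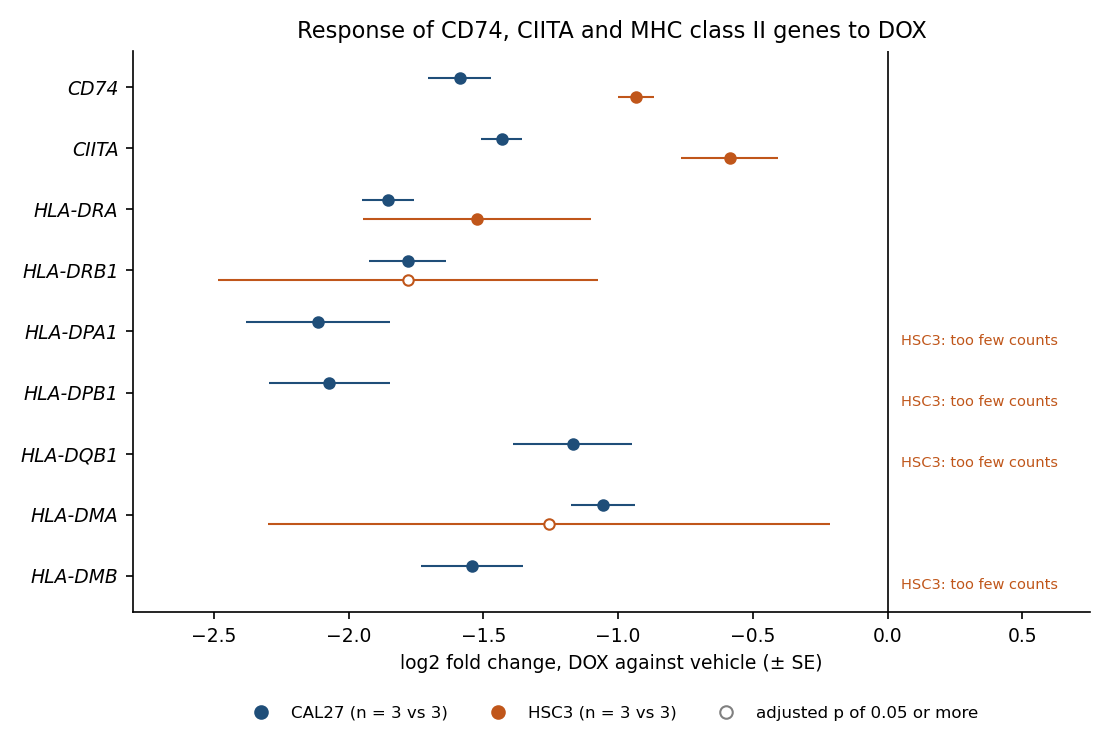
Log2 fold change of DOX against vehicle with its SE for each gene in CAL27 (blue) and HSC3 (orange) cells, from 3 against 3 libraries. Open points have an adjusted p of 0.05 or more. Bars for HSC3 widen from CD74 to HLA-DMA, and 4 genes had too few counts in HSC3 cells.

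Of the 5 genes tested in both lines, the response of CD74 and of CIITA differed between the lines by the interaction term in 1 fit of all 12 libraries. The HSC3 log2 fold change was above that of CAL27 cells by 0.66 ± 0.12 (SE, adjusted p = 0.00108) for CD74 and by 0.85 ± 0.18 (adjusted p = 0.00298) for CIITA, meaning a smaller fall in HSC3 cells. Of the 20694 genes tested, which include genes read in only 1 line, 8.25% were called in this direction and 12.3% in the other. For HLA-DRA the difference was 0.35 ± 0.29 (adjusted p = 0.475), for HLA-DRB1 −0.02 ± 0.49 and for HLA-DMA −0.29 ± 0.64 (adjusted p = 1.00 and 0.828). With these errors the intervals are wide enough to hold a difference as large as that of CD74. The ratio of CD74 to CIITA counts within a library was 8.72 to 10.6 with vehicle and 7.89 to 10.0 with DOX in CAL27 cells, and 17.1 to 21.8 and 13.0 to 15.9 in HSC3 cells.

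Other class II genes on the list were read almost only in CAL27 cells. Of 6 genes, 3 passed the filter there and none in HSC3 cells. HLA-DRB5, a second DR β chain, ran from 113 to 194 counts in vehicle libraries and from 19 to 44 in DOX libraries (log2 fold change −2.02 ± 0.29 SE, adjusted p = 1.22e-05), and HLA-DQA1, the DQ α chain, had 128 to 180 against 24 to 62 (−1.69 ± 0.26, adjusted p = 2.13e-05). HLA-DOB, the β chain of the HLA-DM inhibitor HLA-DO, was the exception and was higher with DOX at 5 to 11 against 8 to 43 counts (1.79 ± 0.58, adjusted p = 0.0170). That call was lost without vehicle replicate 1 (adjusted p = 0.0810) or 2 (0.0757) and in 1 fit of all libraries (0.290), the groups overlapped, and 30.4% of the exonic bases of HLA-DOB are shared with a readthrough gene on the same strand.

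Of 10 factors that bind the class II promoter or act there with CIITA, 1 fell and 1 rose in CAL27 cells, where 21.8% of all genes tested were called lower and 22.6% higher, and 2 fell and 2 rose in HSC3 cells, where these shares were 15.4% and 13.0%. RFX5, the large subunit of the RFX complex, fell by 0.47 ± 0.05 (log2 units) in CAL27 cells (adjusted p = 5.62e-07) and by 0.47 ± 0.11 in HSC3 cells (adjusted p = 0.00809), the latter lost without HSC3 vehicle replicate 3 (0.0501). NFYA, the DNA-binding subunit of NF-Y, rose by 0.31 ± 0.05 in CAL27 cells (adjusted p = 1.26e-05). RFXAP rose by 0.39 ± 0.13 (adjusted p = 0.0446) and the acetyltransferase gene CREBBP fell by 0.25 ± 0.07 (adjusted p = 0.0211) in HSC3 cells. The RFXAP call was lost without any 1 of the HSC3 vehicle libraries (adjusted p = 0.0591 to 0.169), without DOX replicate 1 (0.0663) or 2 (0.0825), with library totals (0.0585) and with the replicate block (0.0884). The CREBBP call was lost without any 1 of the HSC3 vehicle libraries (0.0572 to 0.113).

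On the interferon-γ route to CIITA, 5 of 8 genes fell in CAL27 cells, and 4 fell and 1 rose in HSC3 cells, beside 21.8% of all genes called lower in CAL27 cells and 15.4% lower and 13.0% higher in HSC3 cells. IFNGR1, the ligand-binding receptor chain, fell by 1.20 ± 0.05 on the log2 scale (SE) in CAL27 and by 1.44 ± 0.11 in HSC3 cells. SOCS1, an inhibitor of the route and itself induced by it, fell by 1.52 ± 0.20 in CAL27 cells (adjusted p = 3.14e-06) and was at −0.54 ± 0.52 in HSC3 cells (adjusted p = 0.508). IRF1, which binds the interferon-responsive CIITA promoter, was at 58.3 ± 1.77 CPM (SD, n = 3) with vehicle against 35.5 ± 4.48 CPM with DOX in CAL27 cells (log2 fold change −0.72 ± 0.07, adjusted p = 3.56e-06) and at 20.2 ± 1.90 against 24.0 ± 5.03 CPM in HSC3 cells (0.24 ± 0.15, adjusted p = 0.278). Without HSC3 DOX replicate 1 the HSC3 value of IRF1 passed (0.41, adjusted p = 0.00136). The IRF1 responses differed by 0.96 ± 0.18 (adjusted p = 0.00141).

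Among 10 genes of endosomal processing, 3 fell and 3 rose in CAL27 cells, and 4 fell and 2 rose in HSC3 cells. Over all genes, CAL27 cells had 21.8% called lower and 22.6% higher, while the HSC3 shares were 15.4% and 13.0%. CTSS, cathepsin S, which makes the last cut of the invariant chain in many antigen-presenting cells, fell by 1.77 ± 0.11 (log2 units) in CAL27 (adjusted p = 6.04e-10) and by 0.75 ± 0.10 in HSC3 cells (adjusted p = 0.000261), a difference of 1.02 ± 0.16 (adjusted p = 0.000395). CTSV, cathepsin V, rose by 0.22 ± 0.04 in CAL27 cells (adjusted p = 0.000190) and fell by 2.20 ± 0.14 in HSC3 cells (adjusted p = 1.24e-06). CTSB fell by 0.93 ± 0.11 and 0.77 ± 0.08, and CTSD by 0.34 ± 0.04 and 0.58 ± 0.11, in CAL27 and HSC3 cells.

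**Figure D4:**
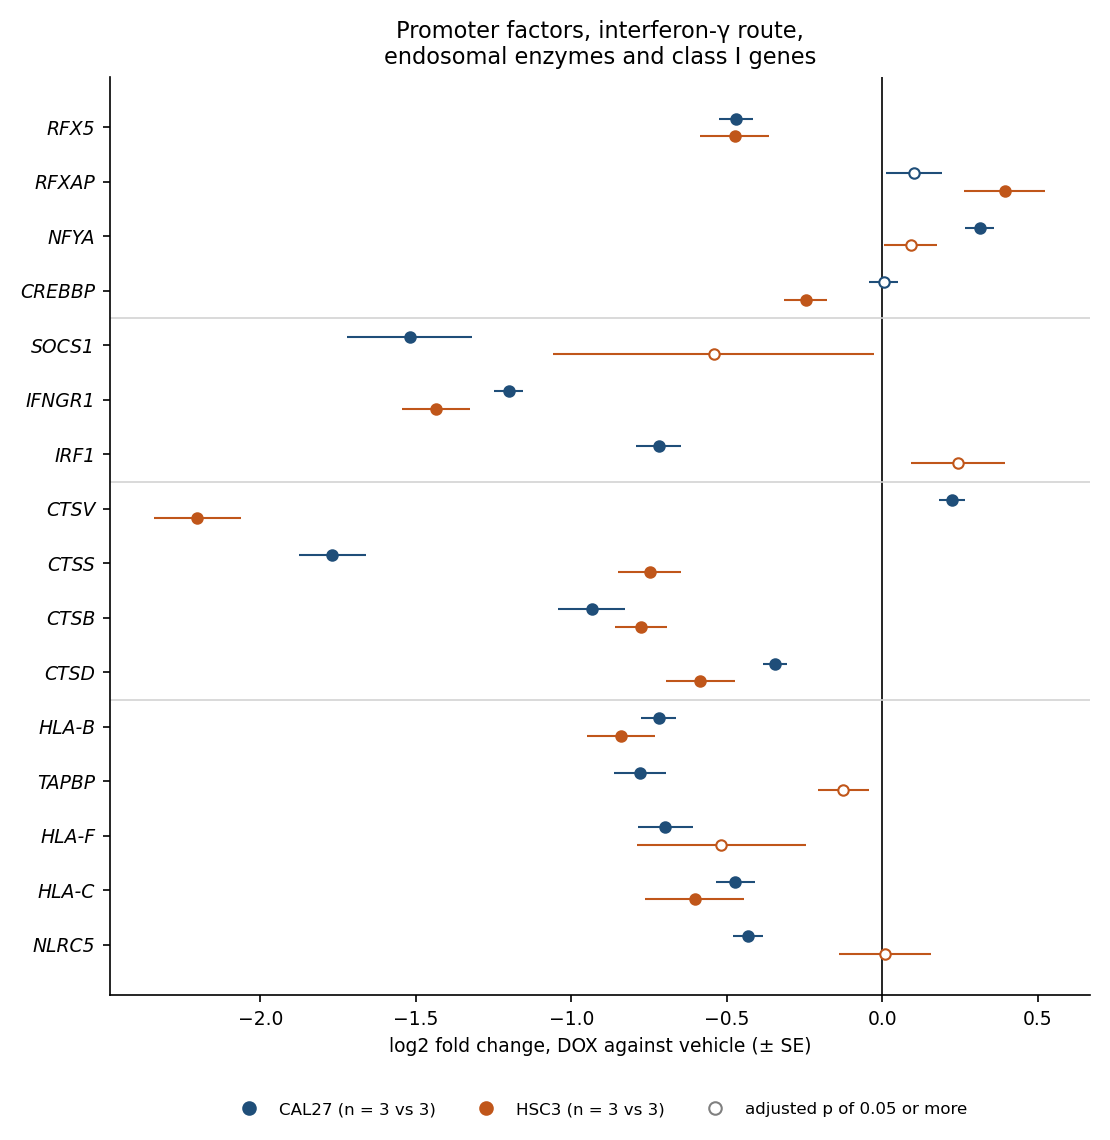
Log2 fold change of DOX against vehicle with its SE for named genes in CAL27 (blue) and HSC3 (orange) cells. Grey lines separate promoter factors, genes of the interferon-γ route, endosomal proteases, and genes of the class I pathway with NLRC5. Open points have an adjusted p of 0.05 or more. The CTSV values of the 2 lines lie on opposite sides of 0, and both passed.

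CD74 also acts at the cell surface as a receptor for MIF, with CD44 as its partner. CD44 rose by 0.54 ± 0.04 in CAL27 cells (adjusted p = 1.75e-09) and was at −0.0029 ± 0.06 in HSC3 cells. CXCR2 fell by 0.89 ± 0.22 in CAL27 cells (adjusted p = 0.00284) at 126 to 219 counts in vehicle and 73 to 119 in DOX libraries, and that call was lost in 1 fit of all libraries (0.148). MIF is listed at 0 in all 12 libraries and DDT had at most 4 counts, and 94.1% of the exonic bases of MIF are shared with genes on the other strand, so neither was analysed here.

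MHC class I genes, whose transactivator NLRC5 uses the same promoter module as CIITA, were examined beside them. Of 10 genes of the class I pathway, NLRC5 among them, 9 fell in CAL27 cells and 3 in HSC3 cells. Over all genes, 21.8% and 15.4% were called lower. The median log2 fold change of the 10 was −0.48 in CAL27 and −0.28 in HSC3 cells. HLA-B fell by 0.72 ± 0.06 and 0.84 ± 0.11, HLA-C by 0.47 ± 0.06 and 0.60 ± 0.16, in CAL27 and HSC3 cells. The HSC3 call of HLA-C was lost without vehicle replicate 1 (adjusted p = 0.0773) or 3 (0.0565). TAPBP, the tapasin gene, fell by 0.78 ± 0.08 and HLA-F by 0.70 ± 0.09 in CAL27 cells, and neither passed in HSC3 cells, at −0.12 ± 0.08 and −0.52 ± 0.27. NLRC5 fell by 0.43 ± 0.05 in CAL27 cells (adjusted p = 2.68e-07) and was at 0.0090 ± 0.15 in HSC3 cells (adjusted p = 0.976).

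Markers of other cell types were examined beside the class II values. Summed over 10 leukocyte markers, the level was 6.89 to 7.42 CPM with vehicle and 4.69 to 5.89 CPM with DOX in CAL27 cells, and 2.83 to 3.55 and 0.856 to 2.00 CPM in HSC3 cells. MS4A1 was at 0 in every library, and there were at most 12 counts of PTPRC, 8 of SPI1 and 8 of LYZ. Others were read in CAL27 cells, with 405 to 670 counts of CD14, 20 to 53 of CD3E and 32 to 73 of CD86. Of the 5 markers tested in CAL27 cells, the integrin genes ITGAM (log2 fold change −0.94, adjusted p = 0.00480) and ITGAX (−1.30, adjusted p = 0.000224) fell. Of the 4 tested in HSC3 cells, ITGAM fell (−2.11, adjusted p = 0.0414), a call lost without any 1 of the vehicle libraries (0.0792 to 0.189), without DOX replicate 2 (0.0594) and with the replicate block (0.0928). Summed over 6 fibroblast markers, the level was 13.5 to 14.2 CPM with vehicle and 10.3 to 10.7 CPM with DOX in CAL27 cells, and 4.20 to 4.998 and 5.97 to 9.34 CPM in HSC3 cells, most of it COL1A1. Of the 4 tested in CAL27 cells, 3 fell, namely LUM from 202 to 320 counts to 56 to 64 (−1.97, adjusted p = 2.95e-08), PDGFRB (−1.02, adjusted p = 0.00518) and COL1A2 (−0.54, adjusted p = 0.00358), while DCN had no more than 8 counts. COL1A1 rose in HSC3 cells (0.73, adjusted p = 0.00891). Beside these calls, 21.8% of all genes tested were called lower in CAL27 cells, and 15.4% lower and 13.0% higher in HSC3 cells. In 1 fit of all libraries the CAL27 calls of ITGAM, ITGAX, LUM, PDGFRB and COL1A2 were lost (0.0899 to 0.509). The part of these markers in the class II values was not tested.

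Genes whose levels were most like those of CD74 were sought by the Pearson correlation of log2 CPM, centred within each line, over the 12 libraries, among the 8597 genes that averaged 3 or more log2 CPM in each line. The highest were GPNMB (r = 0.996), NDRG1 (0.995), TTC7B (0.992), KCNJ15 (0.991) and MDK (0.990). GPNMB, a lysosomal and melanosomal glycoprotein, had log2 fold changes of −1.46 in CAL27 and −0.84 in HSC3 cells. All points share the contrast of DOX with vehicle in the 2 lines, so these values describe a shared response over 4 groups.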

How the data were processed

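Each group had 3 cultures, whose TRIzol extracts went through the TruSeq Stranded mRNA kit. The authors deposited 1 table of raw counts per gene for each line, with genes given by symbol. The submitters' processing notes name FastQC 0.11.9, STAR 2.7.9a, Subread 2.0.1 and featureCounts on GRCh38. The use of strand, the annotation counted and the handling of duplicate and multiply mapped reads are not given in the sources used here. The CAL27 DOX columns are numbered 4 to 6 and the samples 1 to 3, so these columns were taken as libraries of that group without a replicate number. In HSC3 cells same-numbered libraries did not deviate together (r = −0.025, 0.046 and −0.006), so no pairing was used. Replicates differed in all 12 pairs (chi-square of 7.71 to 141 per degree of freedom), and each library counted as 1.

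Each line was fitted alone with edgeR 4.0.16 in R 4.3.3 (TMM scaling, filterByExpr with defaults, robust quasi-likelihood test, two-sided, Benjamini-Hochberg adjustment over all genes tested). The study used DESeq2, which served here as an alternative (version 1.42.0). Differences between lines came from 1 fit of all 12 libraries. A gene was called at an adjusted p under 0.05. The difference between lines was judged only for genes that passed the filter in both. CPM used the TMM sizes of all 12 libraries. On simulated counts the test recovered 98.5% of 200 changed genes in the CAL27 layout and 88% in that of HSC3. It also called 19 and 7 unchanged genes. The changed genes were drawn from those with higher counts, all with the same size of change. These shares therefore do not describe genes with low counts or smaller changes, such as most class II genes in HSC3 cells. Fits with other scalings, filters and rules, without each library, with a replicate block, and on counts rescaled to estimated molecules were tried. The p-values measure the spread between these cultures. Coordinates and lengths are from GENCODE v44 (GRCh38), which may differ from the annotation counted.

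The members, gene lists and tests were chosen with earlier results of these data known. Of each list, up to 4 genes with the largest called log2 fold change in either line were named, plus RFX5, IRF1 and NLRC5, and for CD74, as the member with the highest mean CPM, the 5 most alike genes. Single genes counted in the lists may not be reported here by name.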

Additional observations from a re-analysis of the deposited data

Results flagged for a closer look

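Responses to DOX that differed between the lines by the interaction term of the fit of all libraries are given as the HSC3 log2 fold change minus that of CAL27 cells. Among the class II genes these were CD74 at 0.66 and CIITA at 0.85, both a smaller fall in HSC3 cells. On the gene lists the difference was 0.96 for IRF1, 1.02 for CTSS, 0.65 for TAPBP, 0.44 for NLRC5, 0.80 for TAP1 and 0.51 for USF1. It was −2.42 for CTSV, −0.54 for CD44 and −0.53 for JAK2, a lower HSC3 than CAL27 value. Among the promoter factors it was 0.28 for CREB1, and among the cell type markers it was 1.02 for KRT14, 0.83 for COL1A1, 0.66 for DSP, 0.48 for EPCAM and −0.20 for TP63. The CREB1 difference was lost without any 1 of 7 libraries (0.0512 to 0.103) and that of TP63 in 14 of 18 alternative fits (0.0528 to 0.176). The NLRC5 difference was close to the threshold (adjusted p = 0.0492), and 11 of 18 alternative fits lost it (0.0707 to 0.0920), namely those with library totals, without any 1 CAL27 library and without replicate 2 or 3 of either HSC3 group. The JAK2 difference was lost without CAL27 vehicle replicate 3 (0.0521). Values of single genes were not searched for outlying libraries within the groups of 3. Whole libraries were compared above, and fits without each library are given.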

How the results depend on the processing

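All 9 genes stayed lower in CAL27 cells under other scalings, filters, DESeq2, counts per molecule and without each library, while 1 fit of all libraries kept 7 and left out HLA-DQB1 (adjusted p = 0.0508) and HLA-DMB (0.0812). In HSC3 cells the 3 calls became 1 with the study's fold threshold of 2 added and 1 to 3 without single libraries. The replicate block left 2, with HLA-DRA at an adjusted p of 0.0552, and moved the count of lower genes over the whole table from 2782 to 2523. With 1 fit of all libraries there were 4, HLA-DRB1 being added (adjusted p = 0.00634), and with counts per molecule 2, since HLA-DRA, HLA-DRB1 and HLA-DMA no longer passed the filter. The 2 differences between the lines held in every fit but became 0 with the fold threshold. The 5 baseline calls held in every fit. Of 363 alternative values for single class II genes, 352 kept their direction and side of the threshold, 9 lost a call, 2 gained one and none reversed. No paired analysis was possible in CAL27 cells or across lines because the DOX columns of CAL27 carry no replicate number of the samples. Low counts of these genes limit HSC3 cells, where 4 of the genes were at or near 0 and HLA-DMA, HLA-DRB1 and HLA-DRA rest on few estimated molecules.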

Other observations

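Some genes of the lists lay outside the naming rule and were chosen after their values were seen, among them CREB1 and the single cell type markers given above and the genes described here. MARCHF1, a ubiquitin ligase that removes class II molecules from the cell surface, rose by 0.29 ± 0.08 on the log2 scale (SE, edgeR adjusted p = 0.00333) in CAL27 cells, from 7.47 ± 0.207 to 9.16 ± 0.358 CPM (SD, n = 3), and by 0.34 ± 0.11 (adjusted p = 0.0360) in HSC3 cells, from 13.9 ± 0.881 to 17.7 ± 1.83 CPM. The HSC3 call was lost without any 1 of the HSC3 vehicle libraries (0.0690 to 0.129), without DOX replicate 3 (0.103) and with the replicate block (0.0806). TAP1, a subunit of the peptide transporter of the class I pathway, fell by 0.55 ± 0.05 in CAL27 cells (adjusted p = 2.62e-08) and was at 0.25 ± 0.10 in HSC3 cells (adjusted p = 0.103). JAK2, a kinase of the interferon-γ receptor, fell by 0.51 ± 0.11 in HSC3 cells (adjusted p = 0.00544) and was at 0.021 ± 0.06 in CAL27 cells. USF1, which binds the interferon-responsive CIITA promoter beside IRF1, rose by 0.45 ± 0.09 in HSC3 cells (adjusted p = 0.00412) and was at −0.051 ± 0.06 in CAL27 cells.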
